A study of Mus musculus with 3 samples.

Results

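The leukotriene and prostaglandin enzymes described here are 10 genes, chosen by symbol: Pla2g4a, Alox5, Alox5ap, Lta4h, Ltc4s, Alox15, Ptgs1, Ptgs2, Ptges and Hpgd. All 10 were found among the 16072 named genes of the table, and 9 of them averaged 1 FPKM or more over the 3 libraries. FPKM counts fragments relative to transcript length and to the mapped fragments of the library, so levels can be compared between genes. Expression was measured by RNA-seq of Ly6G+ myeloid cells from the bone marrow (BM) of C57BL/6 mice. Every mouse had B16.F10 melanoma cells placed under the skin 1 week before an adeno-associated virus (AAV) vector went into the muscle, so the control mice carried a tumour as well. AAV-ctrl is an empty vector (2 libraries) and AAV-IL27 carries murine Ebi3 and p28, the chains of interleukin-27, joined by a linker under a CMV and chicken β-actin promoter, which is active in many tissues (1 library). Cells were collected 3 weeks after the vector. The design text speaks of 4 mice in all, of which it gives 2 to AAV-ctrl and 1 to AAV-IL27.

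Eicosanoids are lipid mediators made from arachidonic acid, which cytosolic phospholipase cuts from membranes. In the leukotriene branch a lipoxygenase and its partner protein make an unstable epoxide, which a hydrolase turns into leukotriene B4, a strong neutrophil attractant, or a synthase turns into the cysteinyl leukotrienes. In the prostaglandin branch a cyclooxygenase makes a precursor that terminal synthases turn into prostaglandins and thromboxane, and a dehydrogenase then inactivates the prostaglandins. Neutrophils are known as a main source of leukotriene B4.

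With 1 AAV-IL27 library there is no replicate error for that group, so no p-value was computed. The smallest p that a permutation of 2 against 1 could give is 0.333. A gene counts here as called lower if AAV-IL27 was 1 or more units of log2(FPKM + 1) under both AAV-ctrl libraries, and as called higher if it was as far over both. Calls were made among the 9130 genes that averaged 1 FPKM or more. The scale understates differences of genes with low values. The AAV-ctrl libraries differed from each other by a median of 0.087 units over these genes, and 99% of genes differed by 0.571 or less. Estimated depth was 19100000 to 19450000 fragments per library. Estimated fragment numbers are given below with exact 95% Poisson intervals, which cover counting error only.

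The neutrophil identity of the cells was checked first. All 11 neutrophil markers were present, their summed FPKM was 175988 and 171671 in AAV-ctrl and 166730 in AAV-IL27, and Ly6g stood at 712, 766 and 586 FPKM. Markers of other marrow cells were present too and differed between the groups. Of 10 macrophage markers 10 were called lower, with a summed FPKM of 514 and 547 in AAV-ctrl and 141 in AAV-IL27. The 9 megakaryocyte markers summed to 58.4, 65.5 and 12.1 FPKM, with 4 called lower, the 7 erythroid markers to 239, 173 and 22.8, with 7 called lower, and the 7 B cell markers to 25.5, 32.1 and 4.35, with 3 called lower. The 9 eosinophil markers summed to 145, 148 and 113 FPKM, with 1 called lower. The 6 monocyte markers summed to 1109, 1171 and 1234 FPKM and the 7 basophil and mast cell markers in the table to 417, 472 and 430, with 0 called in either list. Ly6c2 made up most of the monocyte sum (1023, 1086 and 1145 FPKM) and Hdc most of the basophil and mast cell sum (406, 456 and 417). Ear2 likewise made up most of the eosinophil sum (106, 108 and 89.6). These sums therefore say little about the other markers of their lists. No marker was at 0 in all 3 libraries.

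Among the 10 enzymes, the genes that make leukotriene B4 were abundant. Of these, Alox5 and Alox5ap were nearly level between the groups and Lta4h was at 88.9% of its AAV-ctrl mean. Hpgd, which inactivates prostaglandins, was much lower in AAV-IL27. Hpgd stood at 22.5% of its AAV-ctrl mean, and it was the 1 enzyme of 9 called lower. Over all genes 2.32% were called lower. None of the 9 was called higher, against 0.307% of all genes. Without regard to size, 7 of the 10 enzymes were below both AAV-ctrl libraries (6 of the 9 above the level filter), Alox5 was between them, and Ptgs2 and Ptges were above both. Of all genes above the level filter, 41.9% lay below both and 38.9% above both. Rescaling the libraries, either to equal totals or by median ratios, put 6 of the 10 enzymes below both and 4 above both. Here and below, the shares of all genes are given on the deposited scale only, so they are no reference for rescaled counts. The median log2 difference of the 9 enzymes was -0.17, that of all genes was -0.005, and without Hpgd it was -0.09 over 8 enzymes.

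**Figure D1:**
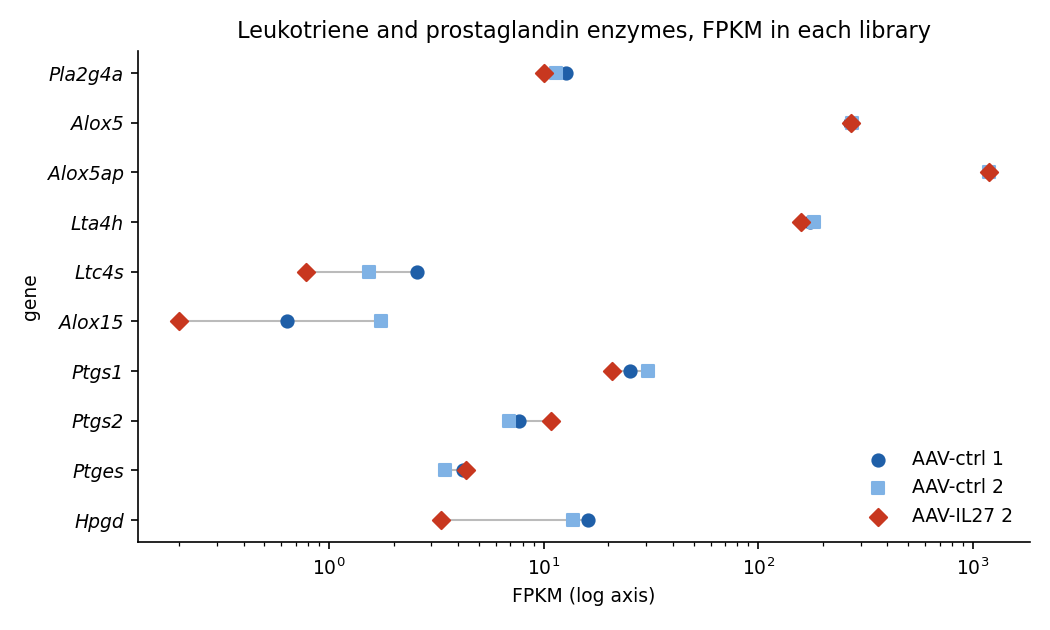
FPKM of each enzyme (rows) on a log axis, with 1 point for each library: AAV-ctrl 1 and 2 in blue and AAV-IL27 in red. The points of Alox5ap, Alox5 and Lta4h nearly coincide at the right, while the red point of Hpgd at 3.34 lies well left of the blue points at 16.02 and 13.66.

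The enzymes spanned more than 3 orders of magnitude in level. Alox5ap had a mean FPKM of 1189 over the 3 libraries and ranked 44 of all named genes, Alox5 followed at 270 (rank 235) and Lta4h at 171 (rank 383). Ptgs1 stood at 25.6, Pla2g4a at 11.4, Hpgd at 11.0, Ptgs2 at 8.45 and Ptges at 4.02 FPKM, and Ltc4s at 1.63 and Alox15 at 0.860 were lowest. The ranges over libraries overlapped between Pla2g4a and Hpgd, between Hpgd and Ptgs2, and between Ltc4s and Alox15. Hpgd was above Pla2g4a and Ptgs2 in both AAV-ctrl libraries and below both genes in AAV-IL27, so its place differed between the groups. The order of Ltc4s and Alox15 is not settled. The other neighbours in the order did not overlap.

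The supply of arachidonic acid came first. Pla2g4a, the cytosolic phospholipase that releases it (NCBI Gene 18783, chr1:149829618-149961290, minus strand), stood at 12.8 and 11.4 FPKM in AAV-ctrl and 10.1 in AAV-IL27. The AAV-IL27 value was the lowest, with a log2 difference of -0.24, and it was 0.17 below the nearer AAV-ctrl library, while the AAV-ctrl libraries were 0.15 apart. The estimated fragments were 687, 620 and 537, and the interval of the last, 493 to 584, overlaps that of AAV-ctrl 2, 572 to 671.

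In the leukotriene branch, Alox5 encodes the lipoxygenase that starts leukotriene synthesis (NCBI Gene 11689, chr6:116410077-116461178, minus strand). Its FPKM was 267 and 272 in AAV-ctrl and 269 in AAV-IL27, or 99.8% of the AAV-ctrl mean of 270 ± 3.42 (SD, n = 2). Alox5ap encodes FLAP, the membrane protein that hands arachidonic acid to that lipoxygenase (NCBI Gene 11690, chr5:149264767-149288153, plus strand). It stood at 1191 and 1192 FPKM in AAV-ctrl and 1185 in AAV-IL27, a log2 difference of -0.01. Neither gene differed between the groups by more than 0.02 from any AAV-ctrl library, and rescaling the libraries to equal totals or by median ratios placed both just above the AAV-ctrl libraries instead. The ratio of Alox5ap to Alox5 FPKM, which no scaling of a library can move, was 4.45, 4.38 and 4.40.

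Lta4h encodes the hydrolase that makes leukotriene B4 (NCBI Gene 16993, chr10:93453411-93484875, plus strand). Its FPKM was 174 and 182 in AAV-ctrl and 158 in AAV-IL27, or 88.9% of the AAV-ctrl mean of 178 ± 5.36 (SD, n = 2). The AAV-IL27 value was below both, and its estimated 5924 fragments (interval 5774 to 6077) did not reach the 6589 (6431 to 6750) of the nearer AAV-ctrl library. The shift from that library, -0.14, ranked 2023 among the falls of the 9130 genes, so falls of this size were common in the table.

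Ltc4s encodes the synthase of the cysteinyl leukotrienes (NCBI Gene 17001, chr11:50236461-50238616, minus strand). It was at 2.57 and 1.53 FPKM in AAV-ctrl and 0.78 in AAV-IL27, with a log2 difference of -0.76. The AAV-IL27 library was lowest, but the AAV-ctrl libraries were themselves 0.50 apart, about as far as AAV-IL27 was from the nearer of them, 0.51. Compared with AAV-ctrl 1 alone the gene would have been called lower, and compared with AAV-ctrl 2 alone it would not. Counted over the longest listed transcript of 649 nt, these values are about 29, 17 and 9 fragments, and the interval in AAV-IL27, 4.12 to 17.1, overlaps that of AAV-ctrl 2, 9.90 to 27.2. Lta4h FPKM exceeded Ltc4s FPKM 67.8 and 119 times in AAV-ctrl and 203 times in AAV-IL27.

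Alox15 encodes the other lipoxygenase of the list, which makes hydroxylated fatty acids and precursors of resolving mediators (NCBI Gene 11687, chr11:70344152-70352031, minus strand). It was at 0.64 and 1.74 FPKM in AAV-ctrl and 0.2 in AAV-IL27, and with a mean of 0.860 it was outside the genes that could be called. AAV-IL27 was lowest, with a log2 difference of -0.82, but the AAV-ctrl libraries were 0.74 apart. The estimated fragments were 29 (19.4 to 41.6), 79 (62.5 to 98.5) and 9 (4.12 to 17.1). The intervals of the AAV-ctrl libraries do not overlap each other, so the spread between mice of 1 group was larger than counting error. Alox15 and Ltc4s are known to be active in eosinophils and macrophages. In AAV-IL27 the 7 eosinophil markers above the level filter ranged from 15.8% to 146% of the AAV-ctrl mean, with 1 called lower. The 10 macrophage markers ranged from 14.1% to 31.4%, with 10 called lower. Alox15 stood at 16.8% and Ltc4s at 38.0%. The part of either cell type in the low values of Alox15 and Ltc4s was not tested.

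In the prostaglandin branch, Ptgs1 encodes the constitutive cyclooxygenase (NCBI Gene 19224, chr2:36230426-36252272, plus strand). It was at 25.3 and 30.7 FPKM in AAV-ctrl and 20.9 in AAV-IL27, or 74.5% of the AAV-ctrl mean of 28.0 ± 3.78 (SD, n = 2). AAV-IL27 was lowest, but its shift from the nearer library, -0.27, was about the size of the gap of 0.27 that separated the AAV-ctrl libraries. The estimated fragments were 1367 (1295 to 1441), 1668 (1589 to 1750) and 1114 (1050 to 1181). No interval overlaps another, so both the fall and the gap between the AAV-ctrl libraries are beyond counting error. Ptgs1 is known as the cyclooxygenase of platelets, and the 7 megakaryocyte markers above the level filter were at 9.57% to 76.1% of their AAV-ctrl mean. Only Gp1ba, at 76.1%, was above Ptgs1. The eosinophil markers (15.8% to 146%) and the basophil and mast cell markers (73.1% to 111%) above that filter also held 74.5% in their ranges. The ranges of the other marker lists did not. The part of any cell type in the Ptgs1 value was not tested.

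Ptgs2 encodes the inducible cyclooxygenase (NCBI Gene 19225, chr1:150100031-150108227, plus strand). It was at 7.64 and 6.91 FPKM in AAV-ctrl and 10.8 in AAV-IL27, or 1.48 times the AAV-ctrl mean of 7.28 ± 0.516 (SD, n = 2). AAV-IL27 was the highest library, with a log2 difference of 0.51. It was 0.45 above the nearer AAV-ctrl library, and the AAV-ctrl libraries were 0.13 apart in this gene. The shift of 0.45 was less than the 0.571 within which 99% of genes of all levels differed between the AAV-ctrl libraries. It ranked 184 among the rises. The estimated fragments were 646 (597 to 698), 589 (542 to 639) and 904 (846 to 965), so the excess is beyond counting error. The ratio of Ptgs1 to Ptgs2 FPKM was 3.31 and 4.44 in AAV-ctrl and 1.93 in AAV-IL27.

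Ptges encodes the inducible synthase of prostaglandin E2 (NCBI Gene 64292, chr2:30889471-30929863, minus strand). It was at 4.23 and 3.47 FPKM in AAV-ctrl and 4.35 in AAV-IL27. AAV-IL27 was 0.03 above AAV-ctrl 1, far less than the 0.23 between the AAV-ctrl libraries, and its estimated 297 fragments (264 to 333) overlap the 292 (259 to 327) of AAV-ctrl 1. No difference in Ptges was detectable here.

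Hpgd encodes the dehydrogenase that inactivates prostaglandin E2 and related prostaglandins (NCBI Gene 15446, chr8:56294585-56321043, plus strand). It was at 16.02 and 13.66 FPKM in AAV-ctrl and 3.34 in AAV-IL27, against an AAV-ctrl mean of 14.8 ± 1.67 (SD, n = 2). The AAV-IL27 library was far below both, and the AAV-ctrl libraries were close together, 0.22 apart. The log2 difference was -1.86, and -1.97 and -1.76 from the single AAV-ctrl libraries. The smaller of these ranked 58 among the falls of the 9130 genes. The estimated fragments were 499 (456 to 545), 429 (389 to 472) and 103 (84.1 to 125). The ratio of Ptgs2 to Hpgd FPKM was 0.477 and 0.506 in AAV-ctrl and 3.23 in AAV-IL27, and that of Ptges to Hpgd was 0.264, 0.254 and 1.30.

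Markers of several other cell types were low in the same library as Hpgd. In AAV-IL27 the 10 macrophage markers were at 14.1% to 31.4% of their AAV-ctrl mean, the 7 megakaryocyte markers above the level filter at 9.57% to 76.1% and the 7 eosinophil markers above it at 15.8% to 146%. Hpgd, at 22.5%, lay within all of these ranges. The eosinophil range reached below Hpgd through Ccr3 alone, at 15.8%, and the other eosinophil markers above the filter were at 37.9% to 146%. Over the same filter, the 7 erythroid markers, at 7.01% to 14.7%, and 3 B cell markers, at 4.16% to 17.4%, were lower than Hpgd. The neutrophil markers were at 79.3% to 113%, 4 basophil and mast cell markers at 73.1% to 111% and the monocyte markers at 98.5% to 174%, all higher than Hpgd. The part of any of these cell types in the Hpgd value was not tested. In a bulk library, fewer cells of a type and less RNA per cell cannot be told apart.

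**Figure D2:**
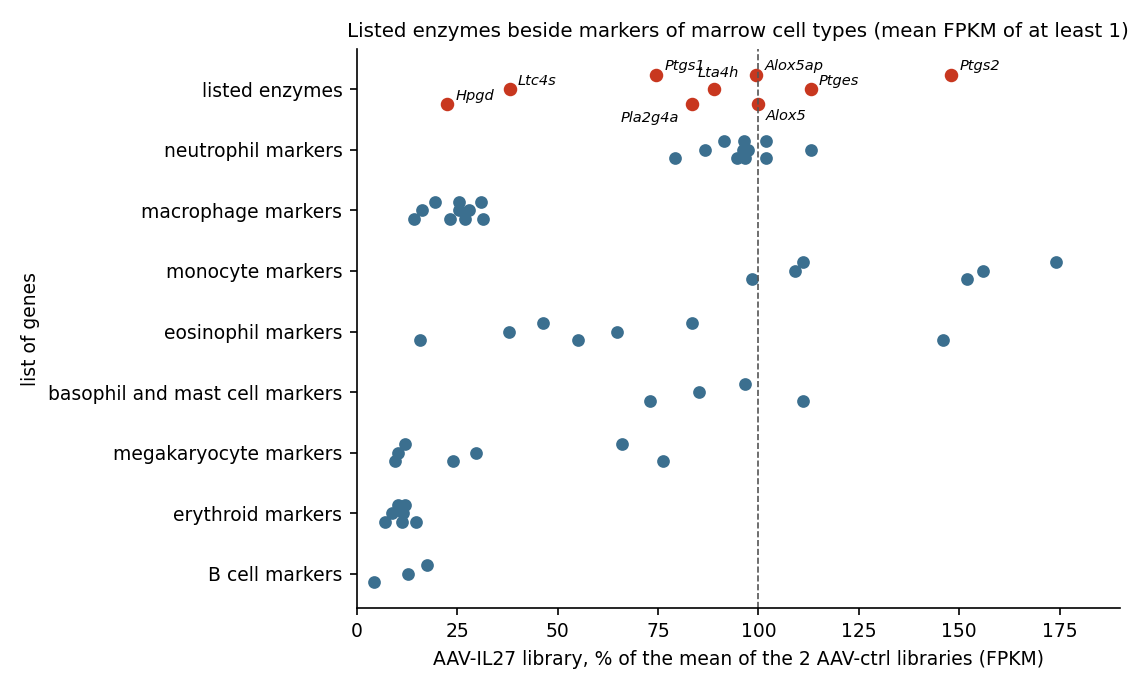
AAV-IL27 FPKM as a percentage of the mean of the 2 AAV-ctrl libraries (horizontal axis) for each enzyme (red, top row) and each marker gene (blue) that averaged 1 FPKM or more. The dashed line marks 100%. Hpgd at 22.5% falls within the ranges of the macrophage (14.1% to 31.4%), megakaryocyte (9.57% to 76.1%) and eosinophil (15.8% to 146%) markers. Alox5 and Alox5ap lie near 100%, which the neutrophil, monocyte, eosinophil and basophil and mast cell ranges hold. Of the eosinophil markers, only Ccr3 lies left of Hpgd and only Siglecf lies right of the dashed line.

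The sequences around the start sites of the enzyme with the largest fall, the one with the largest rise and the level one are shown to make their promoters comparable. They run from 120 bases before the RefSeq start of transcription to 30 bases after it, 5′ to 3′ on the gene's strand, in GRCm38.p6. Capitals mark matches to the motifs searched. Hpgd lies at chr8:56294432-56294581 (plus strand), Ptgs2 at chr1:150099911-150100060 (plus strand) and Alox5 at chr6:116461149-116461298 (minus strand).
Hpgd: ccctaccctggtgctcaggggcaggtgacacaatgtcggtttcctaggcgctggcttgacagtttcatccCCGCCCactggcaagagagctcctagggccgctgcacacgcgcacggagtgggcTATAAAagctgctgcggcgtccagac
Ptgs2: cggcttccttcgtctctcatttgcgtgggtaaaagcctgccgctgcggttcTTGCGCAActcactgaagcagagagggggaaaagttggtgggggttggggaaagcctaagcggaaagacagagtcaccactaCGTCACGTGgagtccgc
Alox5: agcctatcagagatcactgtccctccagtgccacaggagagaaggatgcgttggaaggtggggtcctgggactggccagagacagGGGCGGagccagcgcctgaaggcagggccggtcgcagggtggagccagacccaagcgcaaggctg

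Matches were sought on both strands over the whole window of 300 bases, which starts 250 bases before the RefSeq start, in all 32851 windows of the RefSeq table. A window was found for 8 of the 10 enzymes, 9 windows in all, since Pla2g4a has 2. The table holds no entry for Alox5ap or Alox15. Hpgd holds a TATA box (TATAAA, in 13.6% of all windows) from base 5 to base 10 of the RefSeq transcript, upstream of the GENCODE start of the gene, and a GC box (GGGCGG, in 35.7%) on the other strand from base -50 to -45. Ptgs2 holds a C/EBP-type motif (TTGCNNAA, in 10.8%) from -69 to -62. It also holds a CRE half-site (CGTCA, in 20.8%) from base 14 to 18 and an E-box (CACGTG, in 7.15%) from base 17 to 22, which overlap each other, and a GC box from -170 to -165, outside the printed stretch. Alox5 holds a GC box from -35 to -30. The core of the STAT motif (TTCNNNGAA, in 8.30% of all windows) was in 0 of the 9 windows. A match or its absence describes these letters and this window, not the binding of a factor.

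**Figure D3:**
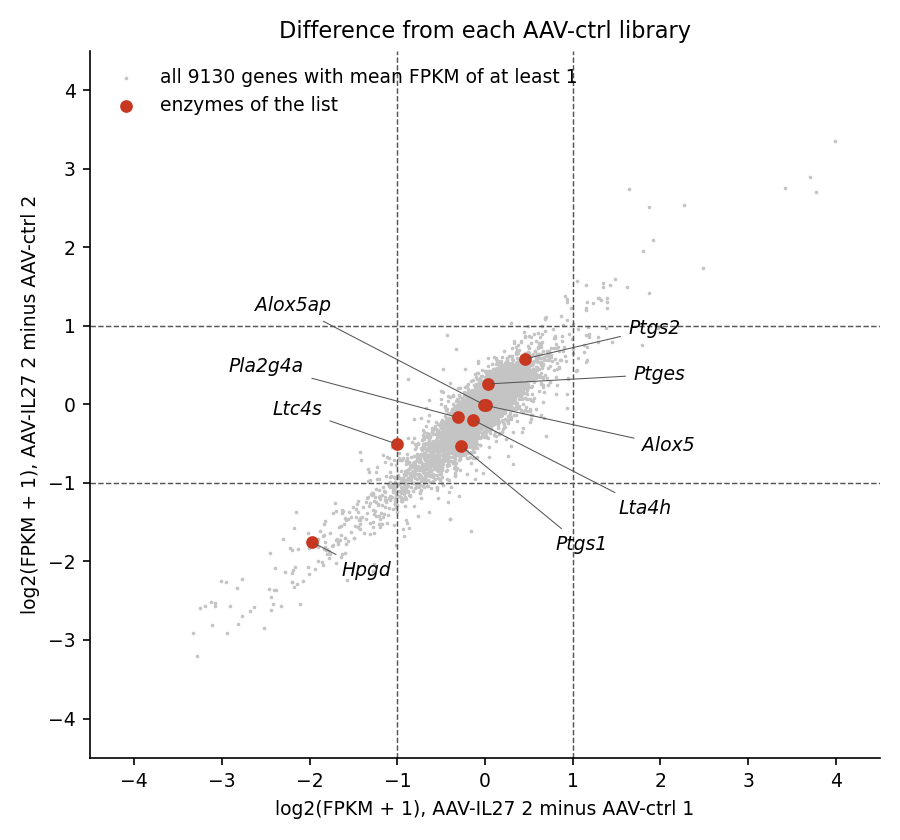
Difference in log2(FPKM + 1) of the AAV-IL27 library from AAV-ctrl 1 (horizontal) and from AAV-ctrl 2 (vertical) for the 9130 genes averaging 1 FPKM or more (grey) and the 9 enzymes among them (red). Dashed lines mark 1 unit. Hpgd, at -1.97 and -1.76, lies past both lines on the low side, and the other 8 enzymes lie inside at least 1 of them.

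The other genes of the eicosanoid pathway numbered 63 on the list used, of which 56 were in the table and 35 averaged 1 FPKM or more. Of these 35, Mgst3 and Alox12 were called lower and 0 were called higher, against the same 2.32% and 0.307% of all genes. Their median log2 difference was -0.15. Whatever the size of the difference, 22 of the 35 were below both AAV-ctrl libraries, 5 between and 8 above, against 41.9% of all genes below both and 38.9% above both. Rescaling by median ratios made the counts 19, 5 and 11, for which no rescaled share of all genes is given.

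Mgst3, a microsomal glutathione transferase related to the leukotriene synthase, was at 10.5 and 11.8 FPKM in AAV-ctrl and 1.85 in AAV-IL27, or 16.6% of the AAV-ctrl mean, and ranked 39 among the falls. Alox12, the lipoxygenase of platelets, was at 2.68 and 3.04 FPKM in AAV-ctrl and 0.53 in AAV-IL27, or 18.5%. AAV-IL27 was far below both in each gene. Megakaryocyte markers were low in the same library (summed FPKM at 19.6% of the AAV-ctrl mean) and erythroid markers lower still (11.1%). B cell markers (15.1%) and macrophage markers (26.6%) were low too. The sums of the eosinophil, neutrophil, basophil and mast cell, and monocyte markers were at 77.1% to 108%. The part of any of these cell types in either value was not tested.

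Of the 8 genes of the further steps of prostanoid synthesis in the table, 6 were above the level filter and 0 were called. These 6 were below both AAV-ctrl libraries, where 41.9% of all genes lay on the deposited scale, with a median log2 difference of -0.67. The 6 stayed below both under either rescaling. Tbxas1, the thromboxane synthase and the most abundant of them, was at 19.2 and 21.8 FPKM in AAV-ctrl and 15.4 in AAV-IL27. Hpgds, the prostaglandin D synthase of blood cells, named here after its values were seen, was at 3.28, 2.67 and 0.95 FPKM. It lay 1.13 and 0.91 below the AAV-ctrl libraries, just outside the call.

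Degradation and transport went both ways, with 3 of 8 genes below both AAV-ctrl libraries and 4 above, against 41.9% and 38.9% of all genes. Cyp4f18, the most abundant of them, encodes the cytochrome P450 that oxidizes leukotriene B4 in mouse neutrophils. It was at 265 and 264 FPKM in AAV-ctrl and 326 in AAV-IL27, or 1.23 times the AAV-ctrl mean of 265 ± 1.12 (SD, n = 2), a log2 difference of 0.30. Its relative Cyp4f13, named after its values were seen, was at 15.7, 15.6 and 23.8 FPKM, a log2 difference of 0.58 that ranked 108 among the rises. The AAV-ctrl libraries were within 0.01 of each other in both genes and AAV-IL27 was above them.

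Receptors were mostly level, but Cmklr1, named after its values were seen, was at 1.22, 1.41 and 0.47 FPKM, or 35.7% of the AAV-ctrl mean. Its mean of 1.03 FPKM was just above the level filter. Of 8 above the level filter, 0 were called, with a median log2 difference of -0.07. Of these, 5 were below both AAV-ctrl libraries and 2 above (41.9% and 38.9% of all genes on the deposited scale). Either rescaling made the receptor counts 3 and 3, for which no rescaled share of all genes is given. Fpr2, a receptor of formyl peptides and lipoxins, was the most abundant at 651 and 654 FPKM in AAV-ctrl and 658 in AAV-IL27. Ltb4r1, the main receptor of leukotriene B4, named after its values were seen, was at 211, 225 and 196 FPKM, or 90.1% of the AAV-ctrl mean. Among phospholipases, 2 of 6 were below both AAV-ctrl libraries, 2 between and 2 above, against the same shares of all genes. The most abundant was Pla2g7, the hydrolase of platelet-activating factor, at 223, 193 and 249 FPKM, with AAV-IL27 the highest. Among the other leukotriene genes, Cotl1, which encodes a partner of the lipoxygenase, was the most abundant at 878, 965 and 964 FPKM, with AAV-IL27 between the AAV-ctrl libraries. Of the epoxide hydrolases, Ephx1 was at 4.91, 4.08 and 1.79 FPKM, 1.08 and 0.86 below the AAV-ctrl libraries.

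**Figure D4:**
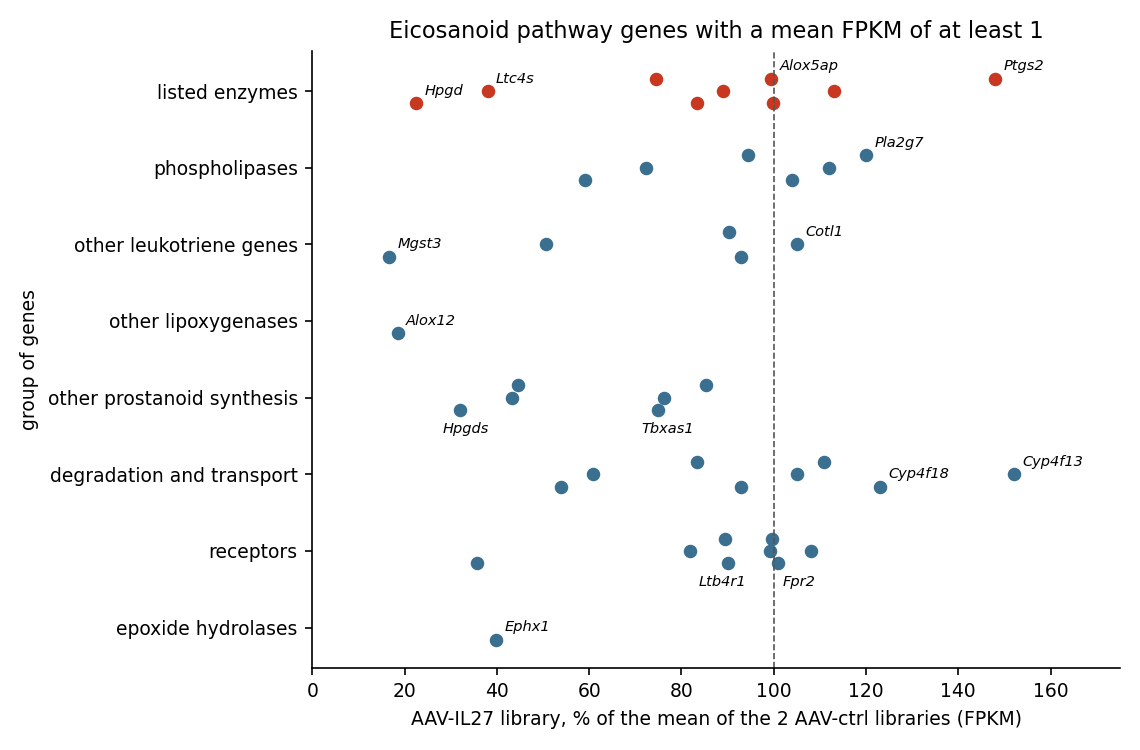
AAV-IL27 FPKM as a percentage of the mean of the 2 AAV-ctrl libraries (horizontal axis) for the 9 enzymes of the list (red) and the 35 other pathway genes (blue) that averaged 1 FPKM or more, in rows by role. The dashed line marks 100%. Hpgd, Mgst3 and Alox12 lie at 22.5%, 16.6% and 18.5%, all 6 prostanoid synthesis genes lie left of the line, and Cyp4f13 lies farthest right at 152%.

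Exons on the other strand overlap Alox5ap (Gm19719), Ltc4s (Gm26542) and Ptgs1 (Gm43621). The libraries mark strand, but whether the counting used it is not given in the sources used here, so fragments of these pairs may have been counted together.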

How the data were processed

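The data are RNA-seq of BM Ly6G+ cells in 3 libraries, grouped by the sample labels into AAV-ctrl (2) and AAV-IL27 (1). The authors enriched mRNA by oligo-dT and deposited FPKM values with 2 decimals for 16073 rows, of which 1 without a gene symbol was left out. The submitters' processing notes name mm10, the same assembly as GRCm38. The aligner and the counting tool are not given in the sources used here. A column of per-sample values whose header names IL27 matches no listed sample (1) and was not used. The authors' figure legend for RNA-seq of BM Gr-1+ cells after these vectors gives n = 2 per group. Whether that column holds the other AAV-IL27 library is not given in the sources used here.

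Differences were computed on the log2(FPKM + 1) scale, subtracting the AAV-ctrl mean from AAV-IL27. Calls were limited to genes averaging 1 FPKM or more. No test across genes was run.

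To estimate depth, the spacing of small FPKM values was fitted over 10934 single-transcript genes whose length came from GENCODE M21 through its RefSeq accession. A length of 70 nt was taken off each. The fit placed 69.6%, 73.3% and 69.0% of 309, 288 and 281 low values within 0.15 of a whole fragment. Since many values were not whole, fragments were only estimated and count models were not used. The steps were tested on simulated data of 10934 genes, where 200 of 200 genes changed 4-fold and 1 of 5927 unchanged genes were called and depth was off by at most 0.255%. The simulation held counting error only, without differences between mice or in cell composition. Its changed genes were drawn only from genes well above the level filter. These counts check the steps and are not error rates of the calls in the real libraries.

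The members and the lists (other eicosanoid pathway genes and markers of neutrophils, macrophages, monocytes, eosinophils, basophils and mast cells, megakaryocytes, erythroid cells and B cells) were chosen with earlier results of these data known. Genes named were all members, pathway genes that were called, the most abundant gene of each pathway group, and those said to be chosen after their values were seen. The printed sequences and the 6 motifs were also chosen after the values were seen. Alternatives were a pseudocount of 0.1, other level filters, 2 rescalings, a threshold of 0.5 and leaving out each AAV-ctrl library. Sequences are from RefSeq (GRCm38.p6). Calculations used pandas 2.3.3, numpy 2.4.6 and scipy 1.17.1 under Python 3.11.15, and plots matplotlib 3.10.9.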

Additional observations from a re-analysis of the deposited data

How the results depend on the processing

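Of the 10 enzymes, Hpgd, Ltc4s, Alox15, Lta4h, Ptgs1 and Pla2g4a had a negative and Ptgs2 and Ptges a positive log2 difference under each of the 5 alternatives run for single genes (0.1 as the pseudocount, equal totals, median ratios, and each AAV-ctrl library left out in turn). Hpgd ranged from -2.11 to -1.76 and Ptgs2 from 0.45 to 0.58. Ltc4s and Alox15 depended most on 1 library, with -0.45 for Alox15 without AAV-ctrl 2 and -1.19 without AAV-ctrl 1, and with Ltc4s reaching the threshold of 1 unit without AAV-ctrl 2 but standing at -0.51 without AAV-ctrl 1. Alox5 ranged from -0.02 to 0.06 and Alox5ap from -0.01 to 0.05, and both turned positive under either rescaling. The rescalings to equal totals and by median ratios shifted all genes by a median of 0.037 and 0.053.

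The count of enzymes called lower was 1 and became 2 (Hpgd and Ltc4s) at a threshold of 0.5. Leaving out AAV-ctrl 2 also gave 2, and leaving out AAV-ctrl 1 gave 1. The median of the enzymes, -0.17, was -0.20 without a filter on low values, -0.13 with equal totals, -0.11 with median ratios and -0.17 to -0.14 without 1 AAV-ctrl library. Pathway genes called lower, 2, were 7 under a pseudocount of 0.1, 1 under a minimum mean of 5 FPKM and 9 at a threshold of 0.5. They were 3 without AAV-ctrl 1 and 5 without AAV-ctrl 2. Pathway genes called higher, 0, became 1 at a threshold of 0.5. Over all genes, 212 were called lower and 28 higher. The lower count was 396 with a pseudocount of 0.1, 93 with a minimum of 5, 640 at a threshold of 0.5 and 243 to 294 without 1 AAV-ctrl library. The higher count was 143 at 0.5, 40 without AAV-ctrl 1 and 49 without AAV-ctrl 2. A looser threshold, a smaller pseudocount and a single comparison library raise counts by construction.

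No paired analysis was possible because, among the 3 libraries used, number 2 is the one number that both groups carry. The AAV-IL27 group has 1 library, so leaving one out was not possible there.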
